A study of Mus musculus with 11 samples.

Results

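The genes described here are 9 members of the pathways through which epithelial cells sense foreign compounds and vitamin D. They are the aryl hydrocarbon receptor Ahr, its repressors Ahrr and Tiparp, its target enzymes Cyp1a1 and Cyp1b1, the pregnane X receptor Nr1i2 (PXR), the constitutive androstane receptor Nr1i3 (CAR), the vitamin D receptor Vdr and the vitamin D-degrading enzyme Cyp24a1. They were picked by symbol from a table of 52550 genes, all 9 were found, and 6 had enough reads to be tested between the diets. RNA was sequenced from colonic epithelial cells of RAG1 KO mice on the C57BL/6 strain, 1 library per mouse. The 5 CD mice received a purified diet with cellulose as the only fiber and the 6 FFD mice the same diet without fiber. All 11 mice were kept on the diet for 4 weeks and then given dextran sulfate sodium (DSS), which injures the colonic epithelium, in the drinking water for 5 days. Loss of Rag1 leaves mice without mature T and B cells but with innate lymphoid and myeloid cells, and no library without DSS was analysed here. No source used here gives the age of the mice. The sample labels carry a 1 in every CD and a 2 in every FFD sample, so a cage or batch that this number may mark cannot be told apart from the diet.

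AhR rests in the cytosol in a complex with chaperones such as HSP90 and p23. Once it binds a ligand, such as an indole made by gut bacteria or plants, it enters the nucleus, pairs with ARNT and binds DNA at xenobiotic response elements (XRE). Its targets include the CYP1 enzymes, which break down the ligand, and the repressors AHRR and TIPARP, which restrain the receptor. PXR, CAR and VDR are nuclear receptors that pair with RXR. PXR and CAR respond to drugs, steroids and bile acids and control detoxifying enzymes and exporters. VDR responds to calcitriol and to the bile acid lithocholic acid, controls calcium uptake and induces Cyp24a1, which clears calcitriol.

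The sequences upstream of the AhR-responsive members Tiparp, Ahrr, Cyp1a1 and Cyp1b1 are shown because these genes are read as signs of AhR activity and their read numbers lay far apart. That of Nr1i2 is shown because it was the only member whose levels did not overlap between the diets. They come from RefSeq on GRCm38.p6, run 5′ to 3′ on the strand of the gene and end at the annotated start, except that of Tiparp, which ends before the first exon of GENCODE M21. The Cyp1a1 region lies inside the gene as GENCODE M21 places it (57687928 to 57703824), so it is upstream of the RefSeq start only. Capitals mark the XRE core GCGTG or, on the other strand, CACGC. The regions are chr3:65528197-65528409 (plus strand) for Tiparp, chr13:74292332-74292581 (minus strand) for Ahrr, chr9:57697363-57697612 (plus strand) for Cyp1a1, chr17:79715062-79715311 (minus strand) for Cyp1b1 and chr16:38294825-38295074 (minus strand) for Nr1i2.
Tiparp promoter: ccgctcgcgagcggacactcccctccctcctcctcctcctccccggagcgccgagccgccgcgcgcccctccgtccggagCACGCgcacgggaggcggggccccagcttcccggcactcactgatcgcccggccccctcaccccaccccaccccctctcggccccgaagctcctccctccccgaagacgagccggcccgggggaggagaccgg
Ahrr promoter: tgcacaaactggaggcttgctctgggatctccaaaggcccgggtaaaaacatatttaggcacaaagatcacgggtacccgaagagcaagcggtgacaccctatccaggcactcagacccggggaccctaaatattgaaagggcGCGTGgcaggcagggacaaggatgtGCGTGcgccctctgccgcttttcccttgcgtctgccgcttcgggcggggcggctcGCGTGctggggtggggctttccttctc
Cyp1a1 promoter: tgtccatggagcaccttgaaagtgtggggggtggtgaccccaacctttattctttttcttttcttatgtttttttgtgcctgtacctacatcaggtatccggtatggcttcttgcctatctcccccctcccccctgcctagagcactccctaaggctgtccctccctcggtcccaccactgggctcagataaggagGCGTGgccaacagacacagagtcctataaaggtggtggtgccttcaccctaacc
Cyp1b1 promoter: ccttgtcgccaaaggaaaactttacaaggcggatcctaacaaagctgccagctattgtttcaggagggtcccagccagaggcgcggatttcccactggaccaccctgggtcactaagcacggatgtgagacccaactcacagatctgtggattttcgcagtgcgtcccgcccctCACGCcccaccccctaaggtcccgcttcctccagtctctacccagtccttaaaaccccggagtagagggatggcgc
Nr1i2 promoter: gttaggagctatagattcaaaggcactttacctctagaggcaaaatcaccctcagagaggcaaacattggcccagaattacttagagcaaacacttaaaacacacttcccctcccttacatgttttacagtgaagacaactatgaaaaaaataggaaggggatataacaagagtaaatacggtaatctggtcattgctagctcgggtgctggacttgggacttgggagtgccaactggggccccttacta

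Within 250 bases before the RefSeq start, Ahrr held 3 XRE cores, the first letters of which lay 107, 82 and 27 bases before the start. Cyp1a1 (54 bases), Cyp1b1 (76 bases), Tiparp (170 bases) and Vdr (79 bases) held 1 each. The Vdr window, like that of Cyp1a1, lies inside the gene as GENCODE M21 places it. Of 7 members with a sequence in the table, 5 held the core, and of 32851 such windows of all genes 28.2% did. The windows of Nr1i2 and Nr1i3 held none. The nuclear receptor half-site AGGTCA was found on either strand in 0 of the 7 members and in 14.0% of all windows, and AGTTCA only in Vdr and in 11.8% of all windows. Ahr and Cyp24a1 had no entry. A match of letters is a description and not a bound site.

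The libraries held 10374154 to 28588266 reads in genes (FFD mouse 4 had the fewest), and 15044 genes were tested. Levels are given as CPM, the reads of a gene scaled to a common library size after TMM, and log2 fold changes above 0 stand for more in FFD. Rag1, the disrupted gene, had 8 to 40 reads per mouse. Whether those reads lay in the disrupted part cannot be seen from a count per gene. At an adjusted p under 0.05 from edgeR's quasi-likelihood test, 36.8% of all genes tested differed between the diets, 18.2% higher and 18.6% lower in FFD mice. With scaling by total reads instead of TMM, every comparison shifted by -0.15 on the log2 scale at the median, and 1636 genes were higher and 4863 lower, against 2740 and 2792 with TMM. All 7 epithelial marker genes on the list, such as Epcam and Krt8, passed the filter on low counts and summed to 10720 to 15510 CPM. With TMM 6 of them (85.7%, against 36.8% of all genes) were higher in FFD mice, and with total-read scaling 2 were. With 1 mouse left out, Krt19 lost its call in 7 of 11 fits and Cldn7 in 8.

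Of the 6 members tested, Nr1i2 and Tiparp were higher in FFD mice, none was lower, and Ahr, Ahrr, Nr1i3 and Vdr did not pass. In bulk RNA, fewer cells that express a gene and less RNA per cell cannot be told apart. A count of 2 in 6 is close to the 36.8% of all genes that passed. The receptors Ahr and Vdr, which were read deeply enough to test, stayed within narrow intervals, whereas Cyp1a1, Cyp1b1 and Cyp24a1, the enzymes that AhR and VDR control, had between 1 and 7 reads over all mice. Both calls were lost when the level of myeloid marker genes, which was higher in FFD mice, entered the model (values with the marker genes at the end). The plot of fold changes shows the 6 tested members and the plot of levels by mouse shows the values behind them.

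**Figure D1:**
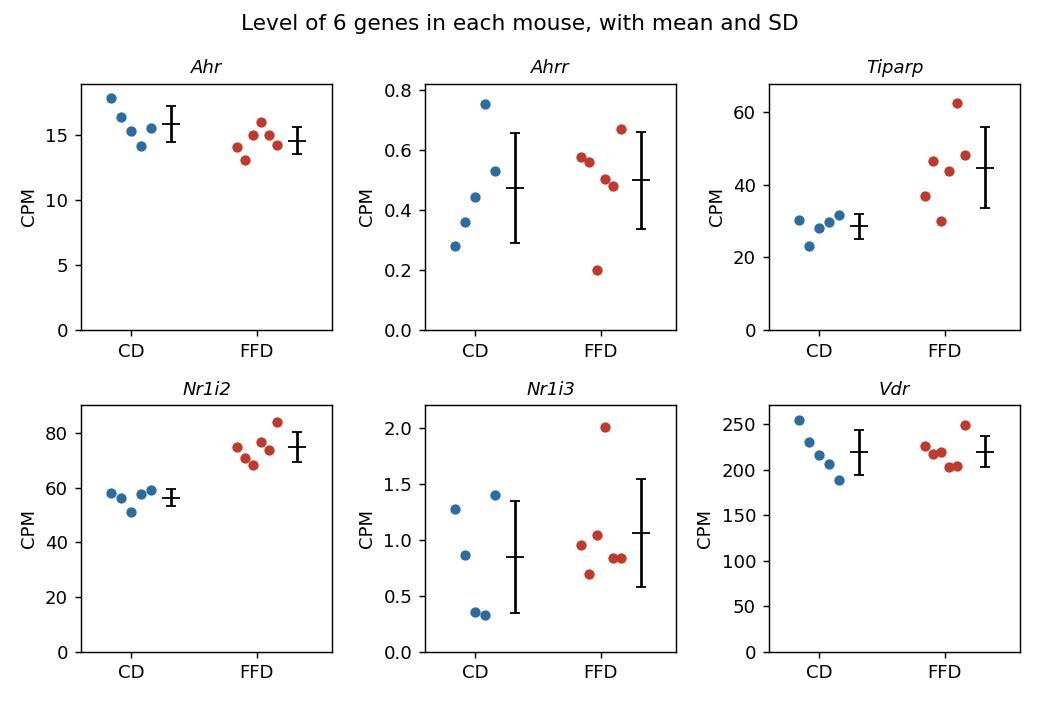
CPM (linear axis from 0) of the 6 tested members in each of 5 CD (blue) and 6 FFD (red) mice, with the mean and SD beside the points. Nr1i2 lies at 68.3 CPM or more in every FFD mouse and at 59.2 CPM or less in every CD mouse, Tiparp overlaps only through FFD mouse 3, and the other genes overlap.

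**Figure D2:**
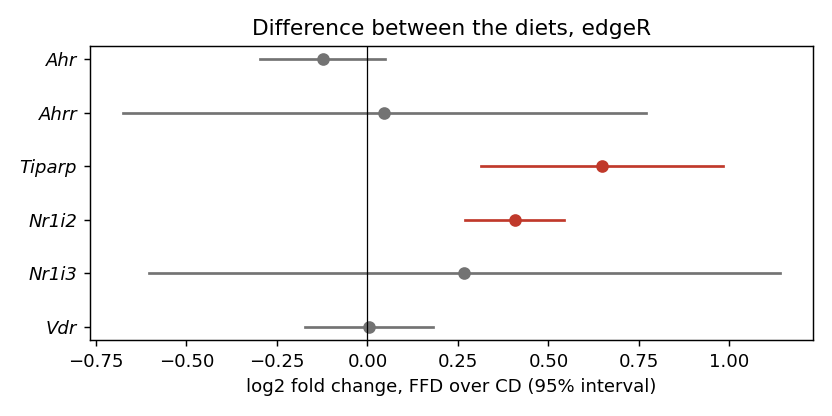
log2 fold change of FFD over CD (horizontal axis) with its 95% interval from edgeR for the 6 tested members, in red where the adjusted p is under 0.05. The intervals of Tiparp (0.31 to 0.98) and Nr1i2 (0.27 to 0.54) lie above 0 and those of Ahr, Ahrr, Nr1i3 and Vdr include it.

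Ahr (ENSMUSG00000019256.17) lies on chromosome 12 of GRCm38 from 35497974 to 35535038 on the minus strand and was read 159 to 455 times per mouse. Its level was 17.8, 16.4, 15.3, 14.2 and 15.5 CPM in the 5 CD mice. In FFD mice the lowest level was 13.1, the median 14.6 and the highest 16.01 CPM. FFD mice lay mostly within the range of CD mice, with 2 of 6 just below it. The level averaged 15.8 ± 1.36 CPM with CD (SD, n = 5) and 14.6 ± 1.01 CPM with FFD (SD, n = 6). The log2 fold change was -0.12 (standard error 0.080, 95% interval -0.30 to 0.049, adjusted p = 0.24 from edgeR). With total-read scaling it was -0.27 and passed (adjusted p = 0.028), against the shift of all genes of -0.15 under that scaling. Exons of Ahr overlap those of Gm48236 on the opposite strand, so some reads of Ahr may belong to Gm48236 if strand was not used.

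Tiparp, an ADP-ribosyltransferase that AhR induces and that in turn restrains AhR, was higher in FFD mice. The gene (ENSMUSG00000034640.9) lies on chromosome 3 from 65528410 to 65555518 on the plus strand and had 433 to 1562 reads per mouse. Its level was 30.2, 23.0, 28.0, 29.6 and 31.6 CPM in CD mice. In FFD mice the lowest level was 30.0 (FFD mouse 3), the median 45.1 and the highest 62.6 CPM (FFD mouse 5). Thus 5 of 6 FFD mice lay above every CD mouse, and FFD mice were more spread out than CD mice, with a coefficient of variation of 24.9% against 11.7%. The level averaged 28.5 ± 3.34 CPM with CD (SD, n = 5) and 44.6 ± 11.1 CPM with FFD (SD, n = 6), a log2 fold change of 0.65 (standard error 0.16, adjusted p = 0.0067 from edgeR) or 1.57-fold (95% interval 1.24 to 1.98). It was 0.53 to 0.75 with any 1 mouse left out and passed each time. Exons of Tiparp overlap those of 4931440P22Rik on the opposite strand, and no source used here says whether reads were assigned by strand. That gene had 17 to 78 reads per mouse, so few that they are a small part of the reads of Tiparp.

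The repressor Ahrr (ENSMUSG00000021575.16, chromosome 13 from 74211118 to 74292331, minus strand), which competes with AhR for ARNT, was close to the limit of testing, with 5 to 23 reads per mouse. Its level was 0.279, 0.360, 0.443, 0.755 and 0.532 CPM in CD mice and 0.200 to 0.669 CPM (median 0.533) in FFD mice, so the diets overlapped throughout. The log2 fold change was 0.047 (standard error 0.34, adjusted p = 0.93 from edgeR), and at this depth its interval ran from -0.68 to 0.77. With total-read scaling it turned to -0.11. Tiparp and Ahrr are both AhR-induced, and only Tiparp passed, but their fold changes were not tested against each other.

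Reads of the CYP1 enzymes were all but missing in both diets. Cyp1a1 (ENSMUSG00000032315.6, chromosome 9 from 57687928 to 57703824, plus strand), the enzyme most often used to read AhR activity, had 1 read in CD mouse 3 and 0 reads in the other mice. The 131432785 reads of the FFD mice hold 0 reads of it, which allows a level of up to 0.0228 CPM from a count of 0. This limit covers counting error only. Cyp1b1 (ENSMUSG00000024087.4, chromosome 17 from 79701537 to 79715061, minus strand) had 1 read in CD mouse 3, 2 reads in FFD mouse 1 and 1 read in FFD mouse 3. The related Cyp1a2 had 1 read over all mice. Reads in 1 mouse and in 3 mice are too few for a test between the diets to pass for Cyp1a1 and Cyp1b1. A difference between the diets in these genes was not detectable at this depth.

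**Figure D3:**
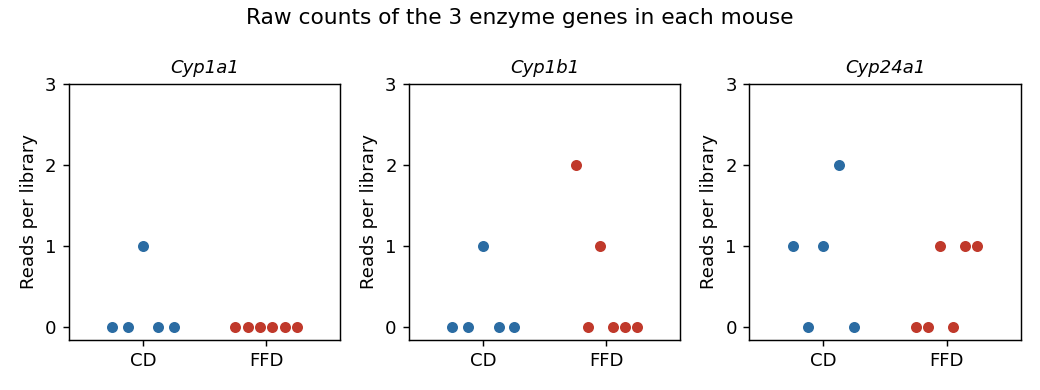
Raw reads per library (vertical axis) of Cyp1a1, Cyp1b1 and Cyp24a1 in each of 5 CD (blue) and 6 FFD (red) mice. No library holds more than 2 reads of any of the 3 genes.

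Nr1i2, the xenobiotic sensor PXR, was higher in every FFD mouse than in any CD mouse. The gene (ENSMUSG00000022809.4) lies on chromosome 16 from 38248323 to 38294824 on the minus strand and had 761 to 1845 reads per mouse. Its level was 58.0, 56.3, 51.1, 57.6 and 59.2 CPM in CD mice. In FFD mice it was 68.3 (FFD mouse 3) at the lowest, 74.5 at the median and 84.3 CPM (FFD mouse 6) at the highest. The diets did not overlap, as was the case for 18.5% of all genes tested. The level averaged 56.4 ± 3.17 CPM with CD (SD, n = 5) and 74.8 ± 5.50 CPM with FFD (SD, n = 6), which gave a log2 fold change of 0.41 (standard error 0.063, adjusted p = 0.0012 from edgeR) or 1.33-fold (95% interval 1.21 to 1.46). This is less than the median size of 0.47 among the genes that passed. It was 0.37 to 0.44 with any 1 mouse left out and 0.25 with total-read scaling, and passed each time.

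Its relative Nr1i3, the receptor CAR, was at about 1 CPM in both diets. The gene (ENSMUSG00000005677.14, chromosome 1 from 171213970 to 171220701, plus strand) had 8 to 37 reads per mouse. Its level was 1.27, 0.864, 0.355, 0.328 and 1.41 CPM in CD mice and 0.692 to 2.01 CPM (median 0.896) in FFD mice. Only FFD mouse 4, the library with the fewest reads, lay above every CD mouse. The log2 fold change was 0.27 (standard error 0.40, adjusted p = 0.63 from edgeR), with an interval from -0.60 to 1.14. Its exons overlap those of Tomm40l on the opposite strand, which had 494 to 1607 reads per mouse, so some or all reads of Nr1i3 may belong to Tomm40l if strand was not used.

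Vdr was the most abundant member and did not differ between the diets beyond the spread between mice. The gene (ENSMUSG00000022479.15) lies on chromosome 15 from 97854425 to 97910630 on the minus strand and had 2018 to 6408 reads per mouse. Its level was 254.7, 230.7, 216, 206.9 and 189.2 CPM in CD mice, and 203.3 to 249 CPM (median 218.5) in FFD mice. All FFD mice lay within the range of CD mice. The level averaged 219.5 ± 24.7 CPM with CD (SD, n = 5) and 220.0 ± 16.9 CPM with FFD (SD, n = 6). The log2 fold change was 0.0033 (standard error 0.082, adjusted p = 0.98 from edgeR), and its 95% interval of 0.887-fold to 1.13-fold bounds the difference. With total-read scaling the log2 fold change turned to -0.15, which equals the shift of all genes.

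Cyp24a1 (ENSMUSG00000038567.5, chromosome 2 from 170482708 to 170497145, minus strand), the enzyme that VDR induces to clear calcitriol, had 7 reads over all mice, 4 in CD and 3 in FFD mice. Reads were seen in 3 of 5 CD and 3 of 6 FFD mice. The exact permutation test of its mean CPM gave p = 0.65. Exons of Cyp24a1 overlap those of Pfdn4 on the opposite strand, which had 132 to 531 reads per mouse, and the few reads of Cyp24a1 may therefore include some of Pfdn4.

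Levels can be compared between genes only per length of exon. Vdr was at 38.9 ± 4.38 CPM per kb (SD, n = 5) in CD and 38.9 ± 2.98 CPM per kb (SD, n = 6) in FFD mice. It was followed by Nr1i2 (22.1 ± 1.24 and 29.3 ± 2.16), Tiparp (6.53 ± 0.767 and 10.2 ± 2.55), Ahr (2.57 ± 0.220 and 2.36 ± 0.164), Nr1i3 (0.192 ± 0.114 and 0.241 ± 0.109) and Ahrr (0.0502 ± 0.0194 and 0.0529 ± 0.0170), each in CPM per kb for CD and FFD mice. In this order each gene was above the next in all 11 mice, except that Nr1i3 was above Ahrr in 10 of 11 mice with overlapping ranges. Cyp24a1 was below Ahrr in all mice, and the order among Cyp24a1, Cyp1b1 and Cyp1a1 rests on single reads. Among 41 nuclear receptor genes, Vdr ranked 4, Nr1i2 ranked 7 and Nr1i3 ranked 34 by mean CPM per kb. The receptors ranked next to Vdr, Esrra (36.7 to 54.2 CPM per kb over all mice) and Ppard (28.1 to 42.1), overlapped its range of 33.5 to 45.1. The range of Nr1i2 (20.0 to 33.0) overlapped those of its neighbours Nr2f6 and Nr4a1.

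**Figure D4:**
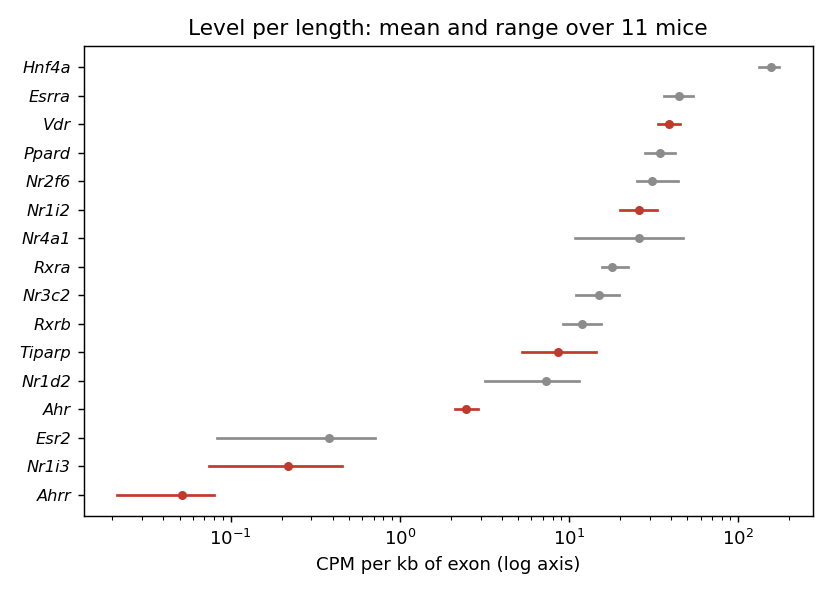
Mean (point) and range (line) over 11 mice of CPM per kb of exon on a log axis, for the tested members (red) and the other nuclear receptors named in the text (gray). Vdr and Nr1i2 lie near the top, at 38.9 and 26.04 CPM per kb, and Nr1i3 (0.218) and Ahrr (0.0516) at the bottom.

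Around AhR, the chaperones that hold it in the cytosol were lower in FFD mice and coactivators were higher. Of 11 partner genes, 3 fell and 2 rose (median log2 fold change 0.12, -0.033 over all genes tested, and -0.033 for the list with total-read scaling). Thus 45.45% passed, against 36.8% of all genes. The p23 gene Ptges3 (-0.37, adjusted p = 0.0073) and the HSP90 genes Hsp90ab1 (-0.37, adjusted p = 0.014) and Hsp90aa1 (-0.42, adjusted p = 0.035) fell, all by edgeR and with no overlap between the diets. Hsp90aa1 lost its call when any 1 of CD mice 1 to 5 or FFD mouse 2 was left out (6 of 11 mice). Hsp90ab1 averaged 2327 ± 136 CPM with CD (SD, n = 5) and 1798 ± 253 CPM with FFD (SD, n = 6). The coactivators Ncoa3 (0.43, adjusted p = 8.0e-04) and Ncoa1 (0.39, adjusted p = 0.0064) rose. Arnt, the DNA-binding partner, did not pass (log2 fold change 0.17, adjusted p = 0.060). These chaperones and coactivators serve many other receptors.

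Other genes known to respond to AhR passed about as often as genes in general. Of 17 listed, 12 were tested, of which 3 fell, 1 rose and 8 did not pass, so that 33.3% passed against 36.8% of all genes (median -0.22). With total-read scaling 8 fell and 1 rose. The quinone reductase Nqo1, which NRF2 controls as well, averaged 27.1 ± 6.29 CPM with CD (SD, n = 5) and 17.7 ± 2.42 CPM with FFD (SD, n = 6) (log2 fold change -0.61, adjusted p = 0.0056 from edgeR). The Wnt receptor ligase Znrf3 (-0.75) and the acyltransferase gene Lpcat2 (-0.53) fell too, while the exporter gene Abcg2 rose (0.70, adjusted p = 0.0042). Among enzymes that conjugate or oxidize foreign compounds, Ugt1a6a (-0.38, adjusted p = 0.056) and Cyp2s1 (-0.39, adjusted p = 0.050) did not pass. Ugt1a6a shares exons with the other Ugt1a genes, so its value is not specific to it. They are named after their values were seen. The untested Aldh3a1, Ugt1a6b, Gsta2 and Serpinb2 had 5 to 34 reads over all mice. Of 7 tested genes that break tryptophan down to AhR ligands, the formamidase Afmid rose (0.46, adjusted p = 0.010) and the aminotransferase Kyat3 fell (-0.72, adjusted p = 0.018) and 5 did not pass (median 0.15, -0.014 with total-read scaling). Of these tryptophan genes 28.6% passed, against 36.8% of all genes. Exons of Afmid overlap those of Tk1. Afmid lost its call with total-read scaling (adjusted p = 0.053). The most abundant of these genes, the interferon-induced Ido1, averaged 146 ± 47.9 CPM with CD (SD, n = 5) and 217 ± 136 CPM with FFD (SD, n = 6) and did not pass (adjusted p = 0.26), nor did Kyat1 (-0.17, adjusted p = 0.34).

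Genes listed as targets of PXR and CAR changed in both directions between the diets. A link to the level of Nr1i2 was not tested. Of 34 listed, 22 were tested, of which 5 rose, 8 fell and 9 did not pass (median -0.18), so that 59.1% passed against 36.8% of all genes. Leaving out CD mouse 2 gave 4 that fell, and leaving out CD mouse 1 or 4 or FFD mouse 5 or 6 gave 5. Those that rose were the P450 Cyp3a13, the bile acid and conjugate exporter Abcc3, the carboxylesterase Ces2a, the first enzyme of heme synthesis Alas1 and the tight junction scaffold Tjp1. Cyp3a13 averaged 49.3 ± 11.3 CPM with CD (SD, n = 5) and 72.7 ± 9.46 CPM with FFD (SD, n = 6) (log2 fold change 0.56, adjusted p = 0.0081 from edgeR), Abcc3 rose by 0.41, Ces2a by 0.31, Alas1 by 0.52 and Tjp1 by 0.85. Ces2a lost its call when CD mouse 3 (0.24), CD mouse 4 (0.28) or FFD mouse 6 (0.27) was left out. The genes that fell were glutathione transferases (Gsta3, -2.57, Gstm1, -1.52, Gstm3, -1.17, Gstp1, -0.40, and Gstm2, -0.35), the sulfotransferase Sult1a1 (-0.65), the carboxylesterase Ces1d (-0.79) and the aldehyde dehydrogenase Aldh1a7 (-0.47). With 1 mouse left out, Gstm2 kept its call only without FFD mouse 3 or 4, Sult1a1 only without CD mouse 5 or FFD mouse 1 or 3 and Aldh1a7 only without CD mouse 3 or 5 or FFD mouse 1, 2 or 3, and Ces1d lost it without CD mouse 2. Gstm1 averaged 104 ± 26.2 CPM with CD (SD, n = 5) and 36.2 ± 14.5 CPM with FFD (SD, n = 6). With total-read scaling, 4 of the listed targets rose and 10 fell, and the list median was -0.33. Members of the Gstm, Cyp2c and Ces families share near-identical stretches, so the split of reads between them is uncertain. The classical liver targets Cyp3a11 and Cyp2b10, named after their values were seen, had 22 and 15 reads over all mice and were too low to test. Of 8 tested partners, the nuclear receptor Rxrb fell (-0.42, adjusted p = 0.0025), Hnf4a rose (0.21, adjusted p = 0.033), and Rxra (0.15, adjusted p = 0.15) and Ppargc1a (0.32, adjusted p = 0.083) did not pass. The median of these partners was 0.14, and -0.018 with total-read scaling. Hnf4a lost its call with total-read scaling (0.056, adjusted p = 0.54) and when CD mouse 3, 4 or 5 or FFD mouse 2 or 4 was left out (0.18 to 0.22).

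Targets of VDR passed about as often as genes in general. Of 24 listed, 16 were tested, of which 3 rose, 3 fell and 10 did not pass, so that 37.5% passed against 36.8% of all genes (median 0.044, -0.090 with total-read scaling). The pore-forming claudin Cldn15 fell (-0.85, adjusted p = 0.0010) and so did Cldn2, from 302 ± 19.6 CPM with CD (SD, n = 5) to 213 ± 39.9 CPM with FFD (SD, n = 6) (-0.50, adjusted p = 0.0069 from edgeR). The autophagy gene Atg16l1 fell by 0.25, and lost its call without CD mouse 5 (-0.18). The cell cycle inhibitor Cdkn1a (0.74, adjusted p = 0.0030), which p53 also controls, the adhesion gene Cdh1 (0.51, adjusted p = 0.0020) and the phosphate carrier Slc34a2 (0.62, adjusted p = 0.036) rose. Slc34a2 lost its call when CD mouse 3, 4 or 5 or FFD mouse 1, 2 or 6 was left out (6 of 11 mice), with total-read scaling and in thinned libraries. The calcium transport genes S100g, Trpv6 and Atp2b1 and the manganese exporter gene Slc30a10, which are direct VDR targets in gut and are named after their values were seen, did not pass. S100g averaged 9.69 ± 4.63 CPM with CD (SD, n = 5) and 6.21 ± 3.60 CPM with FFD (SD, n = 6) (-0.67, adjusted p = 0.21), Trpv6 had a log2 fold change of 1.07 (standard error 0.61, adjusted p = 0.19), Slc30a10 of -1.04 (standard error 0.49, adjusted p = 0.11) and Atp2b1 of 0.17 (adjusted p = 0.12). Of 6 tested genes that activate or carry vitamin D, the hydroxylase gene Cyp27a1, which also acts in bile acid synthesis, rose (0.54, adjusted p = 0.029). Its call was lost when CD mouse 3 (0.48), 4 (0.48) or 5 (0.53) or FFD mouse 6 (0.41) was left out, and the list median of 0.069 turned to -0.091 with total-read scaling. The hydroxylase gene Cyp2r1 (0.31, adjusted p = 0.16), the carrier receptor Lrp2 (-0.78, adjusted p = 0.27) and Pdia3 (0.052, adjusted p = 0.65) did not pass. Of the 6 tested, 16.7% passed, against 36.8% of all genes. The gene for the activating enzyme, Cyp27b1, had 49 reads over all mice.

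**Figure D5:**
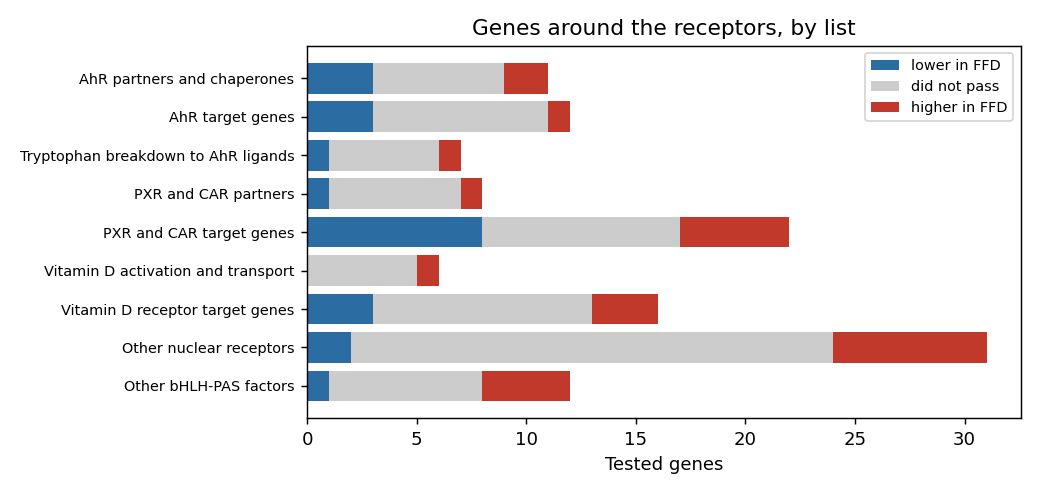
Tested genes (horizontal axis) of each list with blue for lower in FFD, red for higher in FFD (adjusted p under 0.05 from edgeR) and gray for the rest. Targets of PXR and CAR (5 higher, 8 lower of 22) and of VDR (3 higher, 3 lower of 16) are split between the directions. Over all genes 36.8% passed.

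Relatives of the receptors give the setting for the members. Of 31 other nuclear receptors tested, 7 rose and 2 fell, against 18.2% higher and 18.6% lower over all genes, and with total-read scaling 4 rose and 5 fell. The list median was 0.013, and -0.14 with total-read scaling. Ppard (0.36, adjusted p = 0.0025), the mineralocorticoid receptor Nr3c2 (0.46, adjusted p = 0.0022) and Esrra (0.31, adjusted p = 0.0075) rose, and the estrogen receptor Esr2 (-1.28, adjusted p = 0.0097) and the clock repressor Nr1d2 (-0.60, adjusted p = 0.042) fell. Nr1d2 lost its call when any 1 of CD mice 1 to 4 or of FFD mice 2, 4, 5 and 6 was left out (-0.62 to -0.47). The bHLH-PAS factors, the family of AhR, held 12 tested genes, of which 4 rose and 1 fell. Thus 41.7% of them passed, close to the 36.8% of all genes. The hypoxia factor Hif1a averaged 145 ± 27.0 CPM with CD (SD, n = 5) and 354 ± 101 CPM with FFD (SD, n = 6) (1.29, adjusted p = 0.0011 from edgeR). Epas1 (0.68) and the clock factors Npas2 (1.14) and Arntl (0.59) rose and Per3 fell (-0.73). Per3 lost its call when CD mouse 1 (-0.65) or 2 (-0.62) or FFD mouse 5 (-0.65) was left out.

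Markers of absorptive colonocytes (64.3%) and dividing cells (71.4%) passed more often than all genes tested (36.8%). Those of myeloid cells (29.4%) and innate lymphoid cells (28.6%) did not. Of 14 markers of absorptive colonocytes, 9 rose and none fell, and they summed to 11480 to 15910 CPM in CD and 18700 to 31640 CPM in FFD mice. Of 14 markers of dividing cells, 10 fell and none rose, from 1248 to 1737 CPM in CD to 509 to 1213 CPM in FFD mice. With 1 mouse left out, Ccna2 and Aurka each lost their call in 4 of 11 fits and Cdk1 in 2. With total-read scaling all 14 dividing cell markers fell and 8 absorptive colonocyte markers rose. Of 18 markers of macrophages, monocytes and neutrophils in the table, 17 were tested, of which 5 rose and none fell, and they summed to 119 to 189 CPM in CD and 198 to 388 CPM in FFD mice. Most of the sum was Cd14 (68.9 to 105 CPM in CD and 103.8 to 131 CPM in FFD mice) and Ly6g (19.9 to 60.8 CPM and 63.6 to 217 CPM). In FFD mice the neutrophil genes S100a8 (0.881 to 5.32 CPM) and S100a9 (1.32 to 4.67 CPM) lay far below Ly6g. Which cells the reads of Cd14 and Ly6g come from was not tested, so these markers need not measure myeloid cells. Among less abundant genes, Mrc1 (log2 fold change 1.54, adjusted p = 8.6e-04), S100a8 (1.51, adjusted p = 0.031) and C1qb (0.84, adjusted p = 0.029) rose by edgeR. With 1 mouse left out, S100a8 lost its call in 6 of 11 fits, C1qb in 5 and Mrc1 in 0. The macrophage genes C1qa, Cd68 and Adgre1 and the neutrophil gene Csf3r lay below 2 CPM in every mouse and did not pass. Of 14 markers of innate lymphoid cells, which use AhR, 7 were tested, of which 2 rose and none fell, and they summed to 130 to 213 CPM in CD and 196 to 379 CPM in FFD mice. Most of the latter sum was Areg, which epithelial cells also express, and Il22 had 6 to 51 reads per mouse. Summed markers of T and B cells (1.91 to 3.24 CPM, 3 of 12 tested) and of fibroblasts, endothelium and muscle (13.1 to 19.2 CPM, 4 of 14 tested) were low in both diets, none of those tested passed, and no marker in the table was at 0 in all mice. The part of absorptive, dividing and innate lymphoid cells in the levels of Nr1i2 and Tiparp was not tested. With the mean log2 level of the myeloid markers, of which the diet explains 52.0% of the variance, as a covariate, the log2 fold change was 0.17 for Tiparp (adjusted p = 0.51) and 0.36 for Nr1i2 (adjusted p = 0.086 from edgeR), and 75 genes were higher and 8 lower over all genes.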

How the data were processed

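RNA of the colonic epithelium was taken from 5 CD and 6 FFD mice, 1 library each, so the p-values measure the spread between these mice. The epithelium was detached with DTT and EDTA and cleaned on a Percoll gradient, poly(A) RNA was selected, and single reads were trimmed and aligned to GRCm38 in the CLC Workbench. The values deposited by the authors are whole-number counts for each gene, not normalized. Per the submitters' processing notes, FastQC, DESeq2 1.22.2 and R 3.5.1 were used. Gene models, multi-mapped reads and strand use were not given in the sources used here.

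From the counts, genes were kept by filterByExpr (minimum count 10, minimum total 15). Diet was the only term in the model, libraries were TMM-scaled, and edgeR 4.0.16 (R 4.3.3) supplied quasi-likelihood p-values, adjusted after Benjamini-Hochberg over 15044 genes, with 0.05 as the threshold. Intervals are 95%. For members below the filter, mean CPM was compared by an exact two-sided permutation test (scipy 1.17.1), which is reported only for Cyp24a1 since the others had too few mice with reads. Exon lengths and positions come from GENCODE M21. No mice looked like 1 library deposited again, the smallest chi-square over its degrees of freedom being 11.1 within a diet. Alternatives were DESeq2 1.42.0, limma-voom (limma 3.58.1), other scaling and filters, a robust fit, a replicate block, a myeloid covariate, thinned libraries and each mouse left out. In simulated counts of 15044 genes for FFD against CD, 23, 35, 41 and 48 of 50 genes changed by 0.5, 1, 1.5 and 2 on the log2 scale were recovered, with 4 false calls. Far fewer genes changed there than passed in the data, and as many rose as fell. The simulation therefore does not probe the scaling, and its recovery need not hold for these data.

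The members and lists were chosen with earlier results of these data known. Named genes are all members, up to 4 genes with the smallest p of each list, list genes that passed against the majority of their list and, for each tested member, the 3 genes most like it, without those named Gm plus digits or ending in Rik. Some listed genes are not reported here by name. Genes named beyond this were chosen after their values were seen.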

Additional observations from a re-analysis of the deposited data

Results flagged for a closer look

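Levels of the named genes were searched for a mouse far from the others of its diet, in 98 groups of 5 or 6 mice, of which chance gives about 1 in 20. There were 6 such values, given as the gap to the nearest mouse over the range of the group. Nr1i3 was highest in FFD mouse 4, at 2.01 CPM against 0.692 to 1.04 CPM in the other FFD mice (gap 0.736 of the range), from 20 reads in the library with the fewest. Ncoa3 was lowest in FFD mouse 3 (54.2 CPM, others 61.0 to 64.9, gap 0.642) and Afmid highest in FFD mouse 6 (12.6 CPM, others 8.56 to 9.98, gap 0.650). In CD mice, Ppargc1a was highest in CD mouse 1 (23.4 CPM, others 16.5 to 18.0, gap 0.780), Gstm1 highest in CD mouse 2 (148.9 CPM, others 87.2 to 104, gap 0.735) and Cldn2 lowest in CD mouse 5 (267.8 CPM, others 302 to 315, gap 0.729).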

How the results depend on the processing

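The calls of Nr1i2 and Tiparp held with each mouse left out (2 members higher and 0 lower each time), DESeq2, limma-voom, a robust fit, other filters and scaling and thinned libraries, and were lost with the level of myeloid markers as a covariate (0 members higher). With that covariate, 75 genes were higher and 8 lower in all, 1 PXR and CAR target was lower, 1 bHLH-PAS factor was higher and 0 genes passed in either direction in the other lists or directions of receptor partners, targets and relatives that held a call (cell marker lists were not run). Without TMM, 1 member (Ahr) was lower, 1636 genes were higher and 4863 lower in all, and 8 AhR targets, 2 PXR and CAR partners, 5 other nuclear receptors and 3 bHLH-PAS factors were lower, with 4 other nuclear receptors and 0 genes of tryptophan breakdown, PXR and CAR partners and vitamin D activation higher. The cause of these changes was not tested. The replicate numbers in the labels gave no clear pairing of the mice (correlations of -0.28 to 0.23, and 2 of 5 CD mice most like the FFD mouse of the same number). So few mice cannot exclude one. A replicate block gave 1953 higher and 1829 lower genes, 2 members higher, 5 AhR targets lower and 0 PXR and CAR partners and 0 vitamin D activation genes higher, and the log2 fold change of Vdr was -0.030. Thinned libraries gave 5 AhR targets and 0 tryptophan genes lower, the robust fit 1 other nuclear receptor lower, and no filter 0 PXR and CAR partners higher.

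With 1 mouse left out, the count was 3 to 5 lower for AhR targets (5 without FFD mouse 1), 0 to 2 higher for PXR and CAR partners, 4 to 8 lower for PXR and CAR targets, 0 to 1 higher for vitamin D activation, 1 to 2 lower for other nuclear receptors and 0 to 2 lower for bHLH-PAS factors. The log2 fold change without 1 mouse was -0.075 to 0.29 for Ahrr and -0.035 to 0.079 for Vdr. The difference in mean CPM was -8.6e-04 to 0.020 for Cyp1b1 and -0.015 to 0.0016 for Cyp24a1. Direction also turned for Ahrr (-0.11 without TMM, -0.55 with the covariate), Vdr (-0.15 without TMM), Rxra (-7.4e-04 without TMM), Pdia3 (-0.10 without TMM, -0.027 with the covariate), Ido1 (-0.26 with the covariate) and Nr1d2 (0.038 with the covariate), none of which passed there. Per kb of the longest transcript, the CD means were 2.85 CPM for Ahr, 0.0929 for Ahrr and 50.2 for Vdr. Depth limits Ahrr, Nr1i3 and the 3 enzyme genes most.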

Other observations

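The genes whose levels followed each tested member most closely from mouse to mouse within a diet were found by Pearson's r of log2 CPM centred within each diet over 11 mice. This is a description, since the closest of many genes are always close. Closest to Ahr were Zfp609 (r = 0.964), Scrn3 (0.957) and the clock gene Per1 (0.919), and to Vdr were Tox3 (0.938), Rabep1 (0.937) and the thiopurine methyltransferase gene Tpmt (0.925). Closest to Tiparp were the tropomyosin gene Tpm3 (0.977), Arhgap17 (0.968) and Trim40 (0.965), and to Nr1i2 were the G protein gene Gnal (0.978), Shisa5 (0.937) and Gpr137 (0.936). Closest to Nr1i3 were Fer1l6 (0.960), the steroid dehydrogenase gene Hsd17b2 (0.924) and Nrbp2 (0.920), and to Ahrr were Ndufv3 (0.939), AC114002.3 (0.928) and Rhod (0.925). Among the members themselves, the same r was highest between Ahr and Nr1i3 (0.750) and lowest between Ahr and Ahrr (-0.638). They rest on 8 to 37 reads of Nr1i3 and 5 to 23 reads of Ahrr per mouse. FFD mouse 4, the library with the fewest reads, was the highest FFD mouse for both Ahr and Nr1i3. Tiparp and Ahr had r = -0.072.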
